A study of Mus musculus with 2 samples.

Results

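The transcripts described here are those of Igfbp5 and of 9 further genes of insulin-like growth factor (IGF) signalling, in RNA of mouse retinal organoids at day 6. Igfbp5 was chosen by its number of sites found in both libraries, the highest of any gene, and the others by name: the binding proteins Igfbp2, Igfbp3 and Igfbp4, the ligand Igf2, the receptors Igf1r, Igf2r and Insr, and the adaptors Irs1 and Irs2. Of these 10 genes, 6 were listed in the deposited tables, against 8262 named genes in all. They held 29 of the 26441 listed positions of replicate 1 and 65 of the 50099 of replicate 2. With at least 20 reads, 24 and 25 of these positions remained as sites, among 6463 and 16212 of the whole libraries. Sites matched on the same transcript and position in both libraries are called shared, and the members had 18 of them, 17 in Igfbp5 and 1 in Igfbp2.

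The study addresses N6-methyladenosine (m6A) made by METTL3 during retinal development. Its 2 libraries form 1 group: wild-type organoids of the Rx:GFP line, a cell line whose name refers to a green fluorescent reporter of the eye-field gene Rx (Rax), differentiated for 6 days in serum-replacement medium with a compound labelled AGN at 0.1 µM. Both libraries therefore share the genotype, the line, the compound and the day, and no untreated or METTL3-deficient library was analysed here. Whether they came from separate cultures is not said, so a spread between them may be technical. Poly(A) RNA was read as native strands on nanopores, where a modified base changes the ionic current. Of the genes that define the labelled tissue, 10 of 12 genes of eye field and retinal progenitors were listed in either library. None of 6 pluripotency genes or of 8 mesoderm and endoderm genes was listed. A shared site was found for 7 of the 10, against 22.8% of all listed genes. These lists were chosen with earlier results of these data known, and the share of all mouse genes that are listed was not computed. Every listed position lies on a motif and has at least 5 reads, and the full rule for listing is not stated. Absence from the tables is therefore no measure of expression, and only the eye-field genes that are listed bear on the label.

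IGF1 and IGF2 are secreted growth factors that signal through the receptor kinase encoded by Igf1r, and insulin through that encoded by Insr. The active receptors phosphorylate the adaptors IRS1 and IRS2, which recruit phosphoinositide 3-kinase and lead to AKT. IGF binding proteins hold the ligands outside the cell and set how much of them reaches the receptors. IGFBP5 also binds extracellular matrix, and its gene is expressed widely in embryonic tissue. In mRNA, m6A is placed by a METTL3 and METTL14 complex at adenosines in a short consensus, is common in last exons and near stop codons, and is bound by YTH proteins that act on decay and translation.

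All positions in the tables lie on 4 motifs of 5 bases, shown because every value below belongs to one of them. They are written 5′ to 3′ in DNA letters, with the candidate adenosine in capitals. The motif ggAca held 9 of the shared Igfbp5 sites and is the only one that ends in A. The motif ggAct held 4 of the sites. The motif agAct, the only one that starts with A, held 3, and ggAcc held 1. GGACA made up 52.9% of its shared sites and 38.3% of the 5221 shared sites of all genes. These letters come from the deposited tables. No transcript sequence was used, so whether a position is coding or untranslated was not analysed here.

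Igfbp5 encodes a secreted IGF binding protein. Its gene is given at chromosome 1, 72897091 to 72914043, in the coordinates of the deposited tables. The submitters' processing notes name mm10, but only 3.03% of 8174 named genes, and 0 of the 6 listed members, had a start within 1000 bases of that in the RefSeq list for GRCm38.p6, so the build of these coordinates is unresolved and they were combined with nothing else. All 17 shared sites lay on transcript ENSMUST00000027377.8, between positions 935 and 5045. The fraction modified is a deposited score from 0 to 1 whose denominator is not given. It averaged 0.491 over these sites in replicate 1 and 0.498 in replicate 2, or 0.495 ± 0.00464 (SD, n = 2). That mean hid a wide range, from 0 to 0.933 in replicate 1 and from 0.0504 to 0.959 in replicate 2. A fraction of at least 0.5 was found at 9 sites in replicate 1 and 8 in replicate 2, and one under 0.1 at 2 sites in each.

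The 6 shared sites of the first 3000 nt held both the lowest and the highest value among the 17 shared sites. At position 935, a GGACA, the fraction was 0.909 in replicate 1, with a coverage of 28 reads, and 0.906 in replicate 2, with 133 reads. Values below follow the same order, replicate 1 and then replicate 2, and the reads given are the coverage, not the denominator of the fraction, which is not stated. At 1477, also a GGACA, it was 0.545 over 32 reads and 0.691 over 154 reads, the widest difference between libraries of any Igfbp5 site (0.146). Only 45 nt further, the GGACT at 1522 had 0 over 31 reads and 0.0504 over 154 reads. The drop from 1477 to 1522 was 0.545 in replicate 1 and 0.641 in replicate 2, several times the difference between libraries at either site. The GGACC at 1700 had 0.214 over 33 reads and 0.234 over 158 reads. After another 84 nt the GGACA at 1784 had 0.933 over 30 reads and 0.959 over 181 reads, the highest shared site of the gene in both libraries. Position 2304, an AGACT, followed with 0.690 over 41 reads and 0.696 over 234 reads. It was high for its motif: over all shared sites of AGACT it stood at percentile 88.3 in replicate 1 and 90.5 in replicate 2.

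Most of the shared sites, 11 of 17, lay after position 3000, and 6 of them between 3400 and 3900. The GGACA at 3058 had 0.705 over 84 reads and 0.691 over 340 reads, close to the median of its motif. The GGACA at 3440 was lower, with 0.361 over 118 reads and 0.315 over 430 reads. The GGACT at 3559 had 0.667 over 128 reads and 0.744 over 451 reads, at percentiles 83.0 and 87.6 of its motif. The next pair shared the motif GGACA and lay 32 nt apart, the smallest distance between shared sites of the gene, but differed in level. Position 3605 had 0.129 over 133 reads and 0.225 over 462 reads, and position 3637 had 0.573 over 135 reads and 0.483 over 473 reads. The gap within this pair was 0.444 in replicate 1 and 0.258 in replicate 2, so its direction was the same in both libraries and its size was not.

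Further along, the GGACA at 3801 had 0.664 over 149 reads and 0.635 over 526 reads. The GGACT at 3873 had 0.748 over 157 reads and 0.680 over 546 reads, the highest of the 4 GGACT sites in replicate 1 and second to 3559 in replicate 2. Among the shared sites, the values towards the end of the transcript were intermediate or low. Position 5322, listed in replicate 1 alone, lay beyond them with 0.611 over 306 reads. The AGACT at 4071 had 0.446 over 168 reads and 0.399 over 572 reads. At 4408, a GGACA, the fraction was 0.370 over 202 reads and 0.291 over 648 reads, low for its motif in both libraries (percentiles 24.1 and 18.6). The AGACT at 4799 had 0.336 over 241 reads and 0.386 over 731 reads. The last shared site, a GGACT at 5045, had 0.0638 over 274 reads and 0.0803 over 788 reads. It was the deepest shared site of the gene and among its 2 lowest in both libraries.

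**Figure D1:**
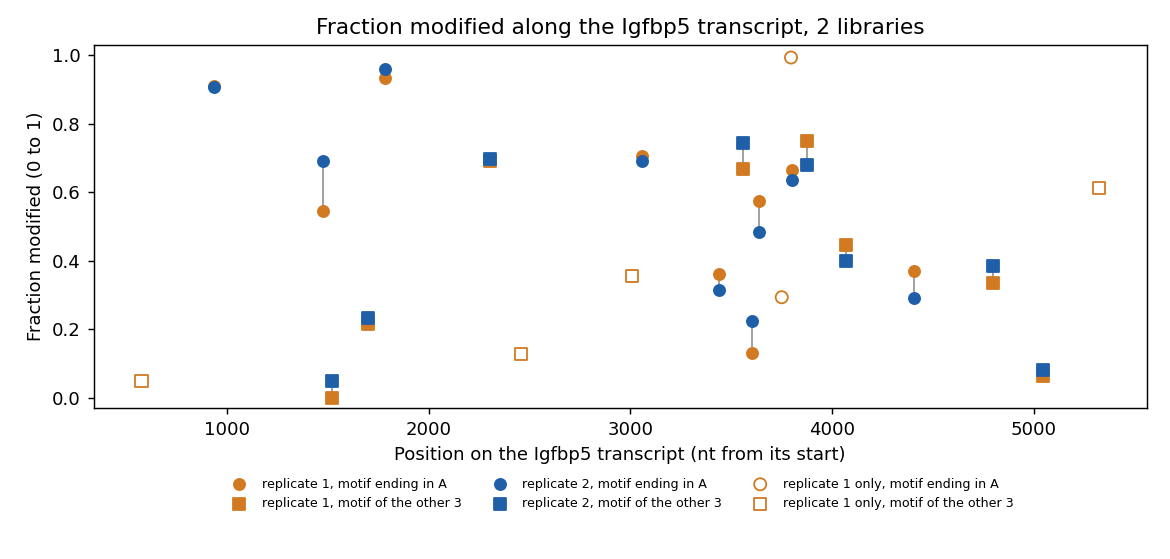
Fraction modified (0 to 1) against position on the Igfbp5 transcript in nt from its start, for replicate 1 (orange) and replicate 2 (blue). Circles are GGACA sites, squares the other 3 motifs, grey lines join the 2 libraries at the 17 shared sites, and open symbols are the 6 positions listed in replicate 1 alone. High and low sites lie within 100 nt of each other, as at 1477 and 1522, and no pair of libraries is more than 0.146 apart.

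The libraries ranked the Igfbp5 sites alike. Across the 17 sites, which share a gene and 2 libraries and are not replicates, Pearson's r was 0.974 and Spearman's rho 0.931. Replicate 2 had the higher value at 9 sites and the lower at 8, with a mean difference of 0.00656 (replicate 2 minus replicate 1). A difference of more than 0.1 occurred at 1 of the 17 sites, against 26.3% of all shared sites, and one of more than 0.2 at 0 of 17, against 5.94%. Depth differs between these sets and was not matched. The root mean square difference was 0.0627 in Igfbp5 and 0.0999 over all shared sites. It was 0.0643 at the 6 Igfbp5 sites with fewer than 50 reads in replicate 1 and 0.0646 at the 10 with 100 or more, whereas over all genes it was 0.114 (3394 sites) and 0.0491 (741 sites with 100 or more reads in each library). By this measure the deepest Igfbp5 sites were no closer between libraries than its shallow ones. The value for the 6 shallow sites rests largely on position 1477, with a difference of 0.146. No other of these 6 differed by more than 0.0504.

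GGACA is the motif with the highest fractions in these tables, and within Igfbp5 it was again higher on average, though by less than over all genes. The mean over the 9 GGACA sites was 0.577 in each library, and over the 8 other sites 0.395 in replicate 1 and 0.409 in replicate 2. The gap was 0.181 and 0.169, or 0.175 ± 0.00894 (SD, n = 2), and over all shared sites 0.310 and 0.301. With sites weighted by coverage the mean gap in Igfbp5 was 0.0884. An exact paired permutation test over the 2 libraries (two-sided) gave p = 0.5, the smallest value this design allows. The gap was seen at the 6 shared sites up to position 3000 and not at the 11 after it. This split at position 3000 was chosen after the values were seen. It also divides the sites by depth, with 28 to 41 reads in replicate 1 up to it and 84 to 274 after it. Position and depth therefore cannot be told apart. Up to position 3000, 3 GGACA sites averaged 0.796 and 0.852 and 3 others 0.301 and 0.327. After it, 6 GGACA sites averaged 0.467 and 0.440 and 5 others 0.452 and 0.458, so that the gap was 0.0151 in replicate 1 and -0.0180 in replicate 2. A minimum of 50 reads keeps exactly these last 11 sites, and under it the mean gap was -0.00143.

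The Igfbp5 sites were then set against the median of their motif, as a description with no test. Of the 9 GGACA sites, 3 in replicate 1 and 4 in replicate 2 were above the median of all shared GGACA sites (0.688 and 0.667). All 3 AGACT sites were above theirs in both libraries (0.267 and 0.250), as were 2 of the 4 GGACT sites, 3559 and 3873. The single GGACC site lay at percentiles 49.5 and 51.6, beside the median. In total, 8 of 17 sites in replicate 1 and 10 of 17 in replicate 2 were above the median of their motif.

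**Figure D2:**
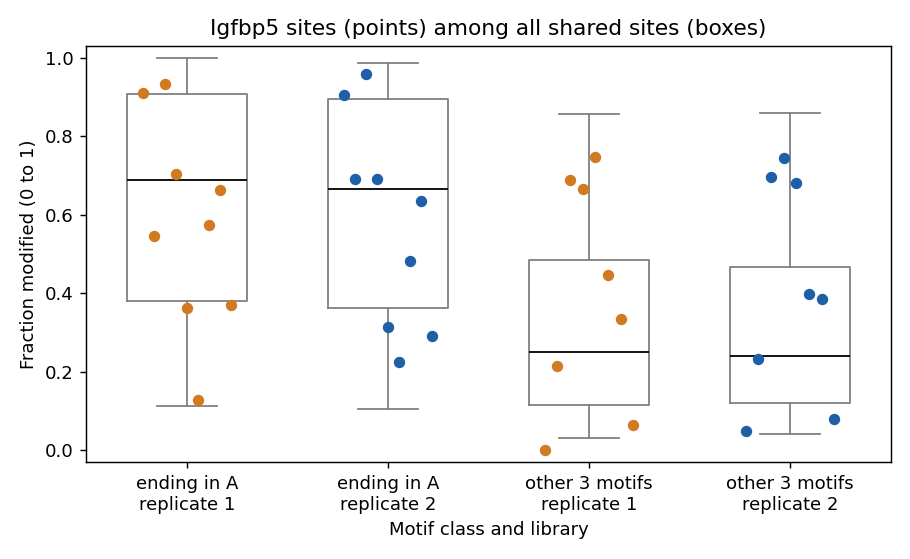
Fraction modified (0 to 1) by motif class and library. Boxes span the quartiles of all 5221 shared sites with the median as a line and whiskers at the 5th and 95th percentiles, and points are the 17 Igfbp5 sites, drawn from left to right by position. Most GGACA points lie below the median of their box, while 3 points of the other motifs lie above the upper quartile of theirs.

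Among 286 genes with at least 5 shared sites, the mean fraction of Igfbp5 stood at percentile 61.7 in replicate 1 and 66.6 in replicate 2, or 64.2 ± 3.46 (SD, n = 2). The median gene had 0.434 and 0.428. After the median of its motif was taken from each fraction, Igfbp5 stood at 39.7 and 43.5, or 41.6 ± 2.72 (SD, n = 2). Igfbp5, first among all genes in the number of shared sites, was therefore near the middle in level on both scales, above it on the first and below it on the second. Of 47 transcripts of other genes with at least 8 shared sites, those whose fractions were distributed most like those of Igfbp5 belonged to Rnf145, Chtf8 and Sar1a. Likeness was the Kolmogorov-Smirnov distance between the sites' mean fractions, where 0 is identity and the median transcript had 0.365. Rnf145, which encodes a ubiquitin ligase of the endoplasmic reticulum, had a distance of 0.137 over 9 sites with means of 0.519 and 0.505. Chtf8, for a subunit of an alternative clamp loader, had 0.166 over 11 sites. Sar1a, for a small GTPase of vesicle export, had 0.182 over 11 sites. GGACA held 2, 2 and 5 of these sites in that order, against 9 of 17 in Igfbp5, and motif was not matched.

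Depth over Igfbp5 was lower towards the 5′ end of the transcript, and in replicate 1 it stayed at 28 to 33 reads from position 1784 to 935. Direct RNA reads begin at the poly(A) tail, so positions far from it are covered only by reads that run long. From position 5045 to 935, coverage went from 274 to 28 reads in replicate 1 and from 788 to 133 in replicate 2, which leaves 10.2% and 16.9% of the reads. Over 40 transcripts with at least 5 shared sites spread over 2000 nt or more, the median share left was 56.6% in replicate 1 and 59.6% in replicate 2, and it was higher in replicate 2 for 28 of the 40. The span of Igfbp5 is 4110 nt, and spans were not matched. The fraction had a weak tie to position, with Pearson's r of -0.291 and -0.380 over the 17 sites, while coverage had 0.963 and 0.984.

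Igfbp5 was also covered relatively more deeply in replicate 2. The ratio of its coverage, replicate 2 over replicate 1, had a median of 3.53 and ran from 2.88 at position 5045 to 6.03 at 1784. Over all shared sites the median ratio was 2. Of 251 transcripts with at least 5 shared sites, 6 had a higher median ratio, which puts Igfbp5 at percentile 97.4. Igfbp2, by comparison, had a ratio of 1.65 at its shared site. The ratio was not constant along the transcript, and replicate 2 kept more of its reads towards the 5′ end, as given above, whose part in it was not tested. In bulk RNA, more cells of a type and more RNA per cell cannot be told apart either, and with 1 library on each side the ratio has no replicate check.

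**Figure D3:**
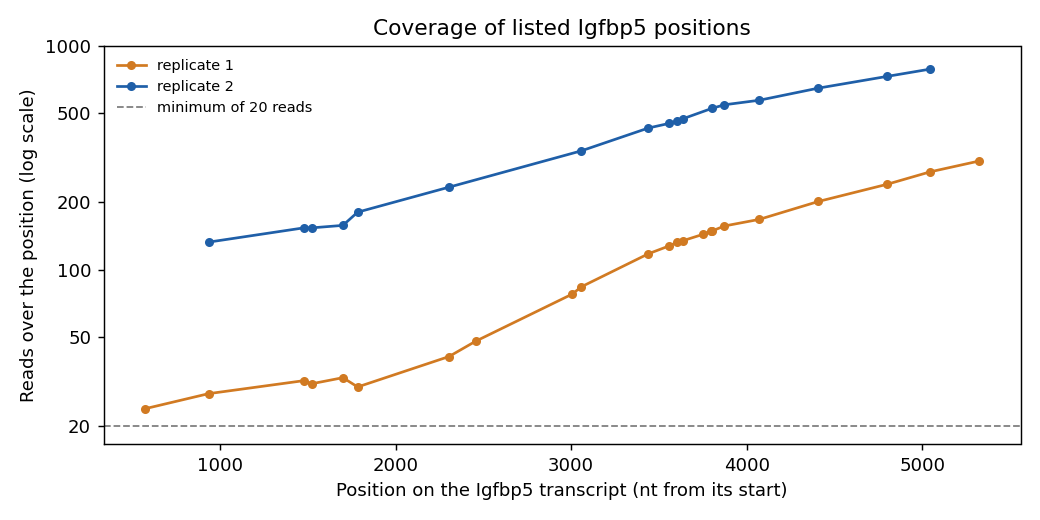
Reads over each listed Igfbp5 position (log scale) against position in nt from the transcript start, for replicate 1 (orange) and replicate 2 (blue), with the minimum of 20 reads as a dashed line. Coverage rises from 28 to 274 reads in replicate 1 and from 133 to 788 in replicate 2 between positions 935 and 5045, and the curves draw together towards the 3′ end.

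Replicate 1 listed 23 sites on this transcript and replicate 2 listed 17, all of them among the 23. The 6 positions absent from replicate 2 ran from 0.0500 to 0.993 in fraction, with a median of 0.324. They were a GGACT at 575 (0.0500 over 24 reads), AGACT at 2456 (0.129 over 48 reads) and 3007 (0.356 over 78 reads), GGACA at 3750 (0.293 over 144 reads) and 3796 (0.993 over 149 reads), and AGACT at 5322 (0.611 over 306 reads). Low and high fractions were both among them, and 5322 was the deepest Igfbp5 position of replicate 1. Of the 6, 4 lie between sites that replicate 2 covered with 234 to 526 reads. Among replicate 1 sites that lie between sites of replicate 2 on the same transcript, 4 of 19 in Igfbp5 were not listed in replicate 2, against 17.9% over all transcripts. In the opposite direction it was 0 of 17, against 13.5%. A position can thus be missing from a table although positions on either side of it have many reads. The rule for listing is not stated in the labels or the headers.

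The site at 3796 is the most modified Igfbp5 position of replicate 1, and it abuts 3801. Since both are GGACA and lie 5 nt apart, the motifs follow each other directly, and the capitals below mark both adenosines.
Igfbp5 3796 and 3801: ggAcaggAca
In replicate 1 the first had 0.993 and the second 0.664, each at a coverage of 149 reads. Replicate 2 listed the second alone, at 0.635 over 526 reads, so the difference of 0.329 within the tandem has no second measurement. Over all transcripts, and with any of the 4 motifs at either position, pairs 5 nt apart were listed 70 times in replicate 1 and 143 times in replicate 2.

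A second Igfbp5 transcript, ENSMUST00000137339.1, held 10 listed positions, of which 1 reached 20 reads in 1 library: an AGACT at 3730 with 0.714 over 39 reads in replicate 2. When its positions were shifted by 753 nt, 5 of the 10 fell on listed positions of the main transcript with the same motif, against 2 at the next best shift. If the 2 transcripts share that stretch, which was not checked against their sequences, its reads could be assigned to either. The best covered of the 5 was 1551, which the shift places at 2304, with 0.857 over 8 reads and 0.583 over 15 reads. It missed the minimum in both libraries, while position 935, the shallowest shared site, passed it with 28 reads in replicate 1. The difference between libraries at 1551 (0.274) was wider than at any shared Igfbp5 site. By the same shift the other 5 positions, 3730 among them, would fall where the main transcript has no listed position in either library.

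Igfbp2, for another secreted IGF binding protein, was the other member with a shared site. The gene is given at chromosome 1, 72863662 to 72891633, and is the neighbour of Igfbp5 in these coordinates. The shared site, a GGACC at position 691 of ENSMUST00000047328.10, had 0.800 (88 reads of replicate 1) and 0.790 (145 reads of replicate 2), or 0.795 ± 0.00707 (SD, n = 2). It stood at percentiles 94.1 and 94.3 of the 1162 shared GGACC sites, whose medians were 0.217 and 0.227. This GGACC was far above the GGACC of Igfbp5 at 1700 in both libraries. Replicate 2 also listed a GGACA at 852 with 0.722 over 147 reads. Replicate 1 did not list it, although 691 had 88 reads there.

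Igfbp4 encodes a binding protein that inhibits IGF action until it is cleaved (chromosome 11, 98932070 to 98945218). It had 1 listed position, a GGACA at 905 with 0.714 over 38 reads in replicate 2. That is percentile 53.4 of its motif, and no second library measured it. Igfbp3, for the main carrier of IGF in serum, and the ligand gene Igf2 were not listed in either library.

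Of the receptors, only Igf1r was listed (chromosome 7, 67602575 to 67883416), and only in replicate 2. Its 13 positions, from 2785 to 11027 of ENSMUST00000005671.9, had 5 to 11 reads each. Their fractions had a median of 0.375, with 0 at 3 positions and 1 at 3 others. At such depth single values carry little information. Igf2r, for the receptor that takes up and clears IGF2, and Insr, for the insulin receptor, were not listed.

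Irs2, for an adaptor between the receptors and phosphoinositide 3-kinase, was the deeper of the adaptors (chromosome 8, 11034681 to 11058458; transcript ENSMUST00000040514.7). Replicate 2 listed 20 positions between 775 and 6149, 10 of them GGACT. The 16 with 5 to 18 reads had a median fraction of 0.177, and 6 of them were listed at 0. The 4 nearest the 3′ end had 20 reads or more, and 3 of these were also listed in replicate 1 with 6 reads. The GGACA at 5727 had 0.750 over 6 reads and 0.813 over 24 reads. The GGACT at 5735, 8 nt further, had 0.5 over 6 reads and 0.357 over 25 reads. The GGACA at 5806 had 0.6 over 6 reads and 0.667 over 25 reads. With 6 reads in replicate 1, these 3 are below the minimum there, and nothing is read from their order or their agreement. The remaining site, an AGACT at 6149, had 0.833 over 23 reads in replicate 2, at percentile 96.1 of its motif, and was just inside the minimum, while 5091 with 18 reads and a fraction of 0 was just outside. Irs1, for the related adaptor (chromosome 1, 82210822 to 82269137), had 3 positions in replicate 2 with 5 or 6 reads.

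**Figure D4:**
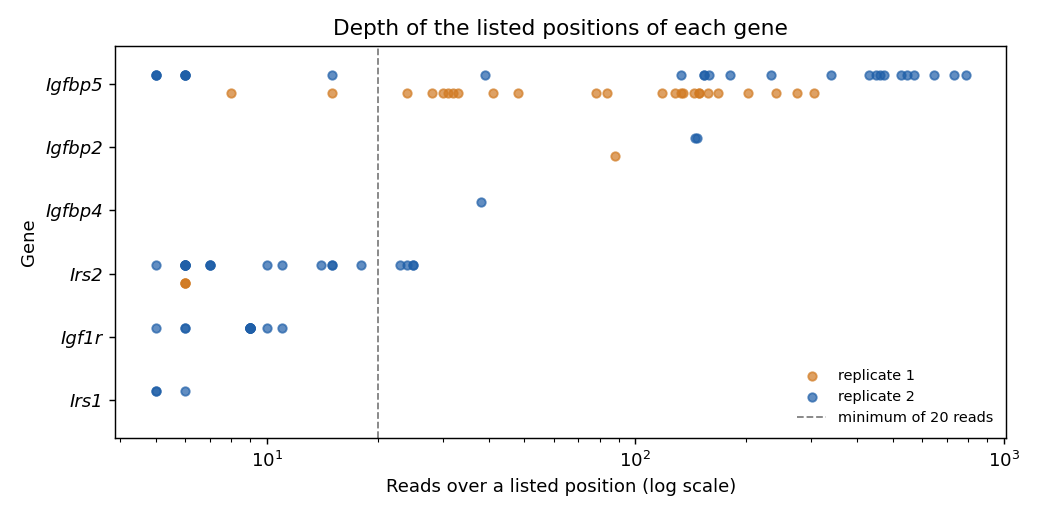
Reads over each listed position (log scale) for the 6 listed members, with replicate 2 (blue) drawn above replicate 1 (orange) and the minimum of 20 reads as a dashed line. Igfbp5 and Igfbp2 pass the minimum in both libraries, Igfbp4 and 4 positions of Irs2 in replicate 2, and Igf1r and Irs1 in neither.

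A shared site was thus found for 2 of the 10 members, or of the 6 listed, against 22.8% of all listed genes. Igfbp5 was chosen for its sites, so its share in this count is given by the choice. Of 39 further genes of the pathway, covering ligands, binding proteins, proteases, adaptors and the kinases down to the FOXO factors, 22 were listed in either library and 2 had a shared site. That count was 12 without a minimum of reads and 1 with 50 reads. None of the other ligand and binding protein genes (Igf1, Ins1, Ins2, Igfbp1, Igfbp6, Igfbp7 and Igfals) was listed in either library. Replicate 2 by itself listed 22 of the 39 genes and had sites in 8 of them, against 48.6% of all genes it listed. They included Irs4, the third adaptor of the list with Irs1 and Irs2, with 9 sites of up to 49 reads there and at most 19 reads in replicate 1, just short of the minimum.

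Akt1, for the kinase at the centre of the pathway (chromosome 12, 112620255 to 112641318), had 4 shared sites on ENSMUST00000001780.9. Its GGACA at 1756 was the highest, with 0.929 over 41 reads and 0.806 over 94 reads. The AGACT at 1668 had 0.652 over 40 reads and 0.481 over 92 reads. Its GGACC sites differed from each other: 0.120 and 0.143 at 1429, and 0.5 and 0.516 at 1943, over 36 to 96 reads. Rheb, for the small GTPase that activates mTOR (chromosome 5, 25007821 to 25047622), had 1 shared site, a GGACA at 968 of ENSMUST00000030787.8. Its fraction was 0.0893 over 70 reads and 0.0720 over 149 reads, at percentiles 3.80 and 2.87 of a motif whose median is 0.688 and 0.667. Position 1756 of Akt1, at the same motif, stood at percentiles 78.6 and 62.0. The tables named minus list 11 and 35 positions in all, and none of them belongs to the 10 members.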

How the data were processed

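Each library has 1 table named plus, used here, and 1 named minus. Coverage, as deposited by the authors, is a count of reads at each position, and the fraction modified is a fraction of 0 to 1 deposited by the authors, whose denominator is not given. Of the 17 Igfbp5 fractions, 2 in replicate 1 and 0 in replicate 2 equal a whole number of reads divided by the coverage, to the 4 decimals given, so no read counts were derived from fractions, no interval was set around one and no test of modified against unmodified reads was made. Base caller, aligner and modification caller are not given in the sources used here. The labels' protocols give 1 flow cell per library and the RNA002 kit. Median coverage over all listed positions was 10 reads in replicate 1 and 12 in replicate 2 (at least 5, at most 6583 and 8985), which limits the precision of single fractions.

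Sites needed 20 reads. They were matched on transcript and position, and the deposited end was taken as the 1-based position. Values are given per library, with mean and SD over the 2. Percentiles are ranks among shared sites of the motif, or among genes. The only test was an exact paired permutation over the 2 libraries, on mean fractions per library. Members and gene lists were chosen with earlier results of these data known. All 10 members are reported. Pathway genes are named where they have a shared site, and genes like Igfbp5 are the 3 nearest by Kolmogorov-Smirnov distance. Irs4, the unlisted pathway genes and the split at position 3000 were chosen after their values were seen. Alternatives were no minimum, 50 reads, matching within 2 nt, 1 transcript per gene, weighting by coverage, motif medians removed and each library left out. Scripts (Python 3.11.15, pandas 2.3.3, SciPy 1.17.1) were tested on simulated data.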

Additional observations from a re-analysis of the deposited data

How the results depend on the processing

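With a minimum of 50 reads, Igfbp5 had 11 shared sites in place of 17 and its mean fraction was 0.454. Under it the gap between GGACA and the other motifs was -0.00143 in place of 0.175. The sites that remain are those after position 3000, so depth and position cannot be told apart. Weighted by coverage, the gap was 0.0884 and the mean 0.438. The cause was not tested. Without a minimum the mean was 0.507, which includes a position of the second transcript. The percentile of Igfbp5 among genes was 70.7 without a minimum and 41.6 with motif medians removed, against 64.2. Other pathway genes with a shared site numbered 12 without a minimum and 1 with 50 reads, against 2. Without a minimum the gap was 0.140. The other alternatives kept these results within 1.5 times or 1 SD. With each replicate left out in turn, the mean ran from 0.491 to 0.498, the gap from 0.169 to 0.181 and the percentile from 61.7 to 66.6, which with n = 2 says nothing about stability. No paired analysis was possible because the samples form 1 group, so no pair spans 2 groups. The exact permutation test of the gap pairs the motif classes within each library. Depth limits Irs2, Igf1r and Irs1 above all, and the unstated rule for listing limits every count of sites.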
